A study of Saccharomyces cerevisiae with 6 samples.

Results

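The COS genes of Saccharomyces cerevisiae form a family of closely related membrane protein genes that lie next to the telomeres of many chromosomes. The members described here are the 10 named COS1, COS2, COS4, COS5, COS6, COS7, COS8, COS9, COS10 and COS12, found through the gene symbols paired with the probe sets of the array. Of these, 8 genes had a probe set under their own name, 1 each, among 5498 probe sets that were paired with a gene. COS1 and COS5 had none and are not described further. The probe sets of COS2, COS4 and COS7 end in _s_at, a suffix for probes that match several transcripts, so their signals belong to a group of similar sequences and not to the named gene alone. The probe sets of COS6, COS8, COS9, COS10 and COS12 carry no such suffix.

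Transcripts were read on Affymetrix arrays of 1 colour, 3 of yeast with wild-type histone H2A and 3 of yeast with H2A R78A, where alanine takes the place of an arginine. This arginine is one of the sprocket arginines, side chains that reach from the histone core into the minor groove of nucleosomal DNA, and the comparison asks which transcripts depend on it. Both groups were grown in rich glucose medium at 30 °C and harvested in mid-log phase. The labels name no strain background and do not say how the mutant histone was introduced or whether each replicate had a culture of its own. The p-values cover the spread of these samples alone, and that spread may be technical.

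Cos proteins span the membrane several times and work in the endosomal system. They are known to help sort plasma membrane proteins into multivesicular bodies, the compartment that delivers them to the vacuole for breakdown, by supplying ubiquitin on behalf of cargo that carries little of it. Genes beside telomeres can be silenced by the Sir protein complex, whose catalytic subunit Sir2 uses NAD+, and COS expression is known to respond to NAD+ supply. COS8 differs from the others in that its product has been placed at the nuclear membrane.

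The position of the members followed the description of the family. In the gene order of the yeast annotation, COS2, COS5, COS7 and COS12 were each the first protein-coding gene from a chromosome end, COS1 and COS6 the second, COS8 and COS10 at rank 4, COS9 at rank 5 and COS4 at rank 6. Their coding lengths lay between 1125 bp for COS10 and 1224 bp for COS9.

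The signals had been scaled to a trimmed mean of 500 on each array, so each level is relative to the other transcripts of that array. Across the brighter probe sets, r between log2 signals was 0.974 to 0.988 within a group and 0.934 to 0.955 between groups; probe sets are not independent replicates. The mutant arrays had a narrower spread of signals, with a 10th percentile of 119 to 134 against 89.2 to 101 in wild type, so dim probe sets lay higher in the mutant as a body. Below a mean log2 signal of 6 the median difference (log2 H2A R78A minus wild type) over 255 probe sets was 0.51, and above 10 it was -0.14 over 611. These medians became -0.04 and -0.01 when the arrays were given one common distribution (quantile normalization). HTA1, a gene for H2A, gave 1794 ± 63.2 in wild type and 1839 ± 104 in the mutant (SD, n = 3), with a difference of 0.03 as deposited and 0.19 after quantile normalization (limma adjusted p = 0.686 and 0.00877). The shared-sequence probe set named for HTA2, the other H2A gene, gave 1470 ± 45.7 and 1332 ± 80.9 (limma adjusted p = 0.0955). The HTA2 probe set without a suffix gave 1.88 ± 0.43 and 1.94 ± 1.33, at percentile 0.091 of signal (limma adjusted p = 0.801). These signals are near that of the highest Affymetrix tag control, 1.94, so this probe set gives no measure of HTA2 RNA. No probe set reads the point mutation itself. The number of arrays limits the precision, and in bulk cultures fewer expressing cells and less RNA per cell cannot be told apart.

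In the mutant the COS family did not move as a block. COS2 and COS9 were lower, COS6 and COS10 had groups that did not overlap but missed the threshold, and COS4, COS7, COS8 and COS12 overlapped between the groups. By limma's moderated test with Benjamini-Hochberg adjustment over all probe sets, 0 of the 8 COS probe sets were higher and 2 lower at an adjusted p below 0.05, against 17.9% higher and 9.35% lower among all probe sets. At an unadjusted p below 0.05 limma gave 1 higher and 3 lower, against 24.2% and 16.4% of all probe sets. With the replicate number as a block, 1 was higher and 3 were lower, against 23.7% and 15.9% of all probe sets. A pairing by number was seen in the residuals of the arrays for replicates 2 and 3 and was weak for replicate 1. The groups did not overlap for 4 of the 8 (1 higher, 3 lower), beside 43.2% of all probe sets (25.6% higher, 17.6% lower), so the count itself lay near the background. The median COS difference was -0.11, with a range from -0.61 to 0.18, and the median over all probe sets was 0.02.

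**Figure D1:**
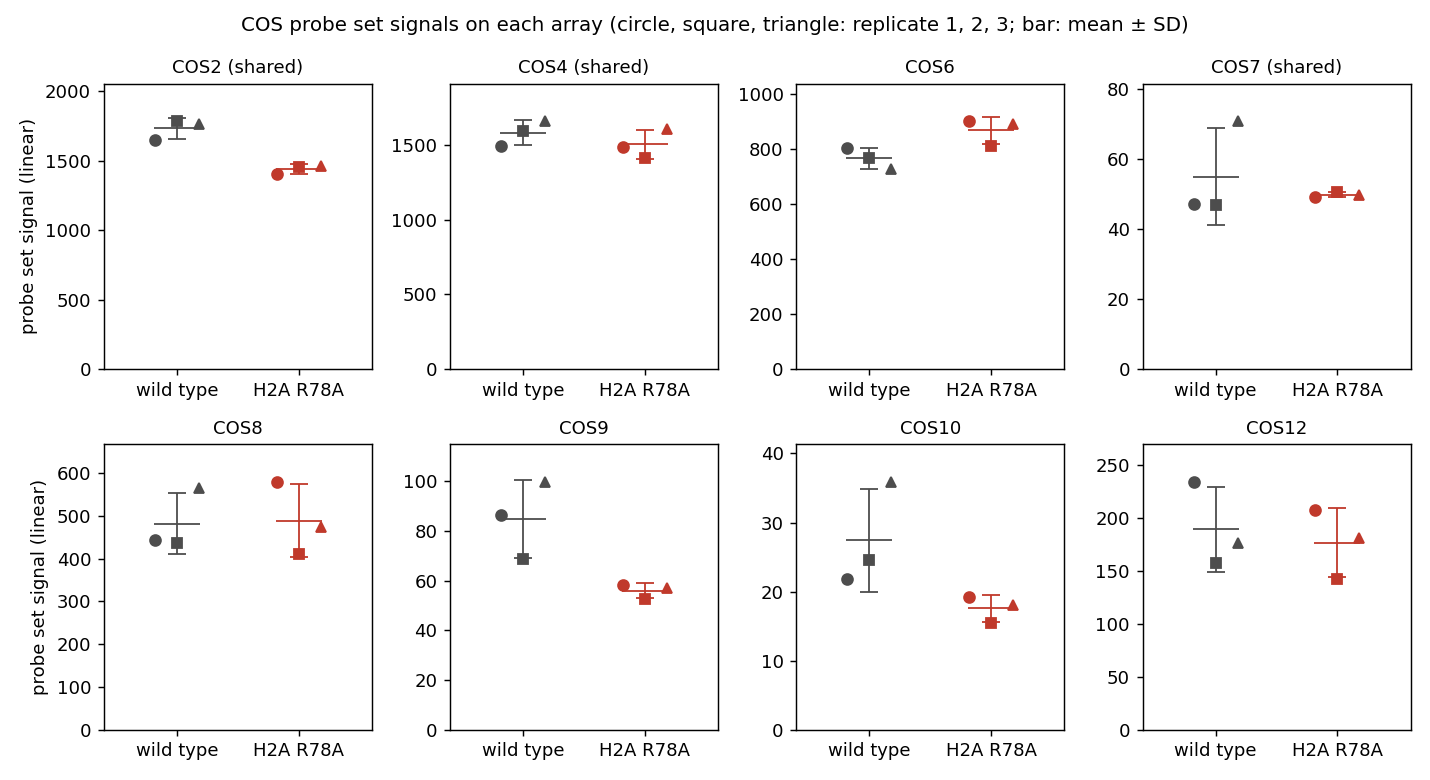
Linear probe set signal (y axis, arbitrary units from 0) of the 8 COS probe sets in 3 wild-type and 3 H2A R78A arrays; symbols mark the replicate number, bars show mean ± SD, and "shared" marks probe sets ending in _s_at. The mutant arrays lie below all wild-type arrays for COS2, COS9 and COS10 and above them for COS6.

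COS9 (YKL219W) encodes an endosomal Cos protein with the longest coding sequence of the members listed. Its signal was 86.3, 68.5 and 99.9 on the wild-type arrays and 58.1, 52.7 and 57.2 on the mutant arrays. All mutant values lay below the lowest wild-type value, and the wild-type arrays were the more scattered, with a coefficient of variation of 18.5% against 5.16%. COS9 fell 1.50-fold (log2 -0.58, SE 0.15, 95% interval -0.92 to -0.24, limma adjusted p = 0.0185). The call ended without wild-type replicate 1 (limma adjusted p = 0.0619), without wild-type replicate 3 (0.0692) or without mutant replicate 3 (0.0512), with differences from -0.60 to -0.46. After quantile normalization the difference was -1.02 (limma adjusted p = 4.44e-04).

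COS10 (YNR075W), whose product acts in the turnover of plasma membrane proteins, was read by one of the dimmest probe sets, with a mean log2 signal at percentile 0.964 of all probe sets. It read 21.8, 24.5 and 35.9 in wild type and 19.2, 15.4 and 18.1 in the mutant. The groups did not overlap, although wild-type replicate 3 stood well above the other two. The difference was -0.61 (1.53-fold, SE 0.22, 95% interval -1.10 to -0.12) and missed the threshold, with a limma adjusted p of 0.0635. With the replicate block the adjusted p was 0.0285, and after quantile normalization the difference was -1.28 (limma adjusted p = 0.00147). Without wild-type replicate 3 it was -0.40 (limma adjusted p = 0.231).

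Both signals are dim, and the dim probe sets of this comparison mostly moved the other way. COS9, with a mean log2 signal of 6.10, and COS10, with 4.44, lay below the 25th percentile of all probe sets, a signal of 231. Both lay above the highest Affymetrix tag control, a signal of 1.94, which alone does not show that either transcript was detected. Among the 1331 probe sets with a mean log2 signal between 6 and 8, 34.5% were higher and 2.78% lower by limma. Among the 255 below 6, 45.9% were higher and 0 were lower by limma. At an unadjusted p below 0.05, 1 of these 255 was lower, and it was that of COS10.

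**Figure D2:**
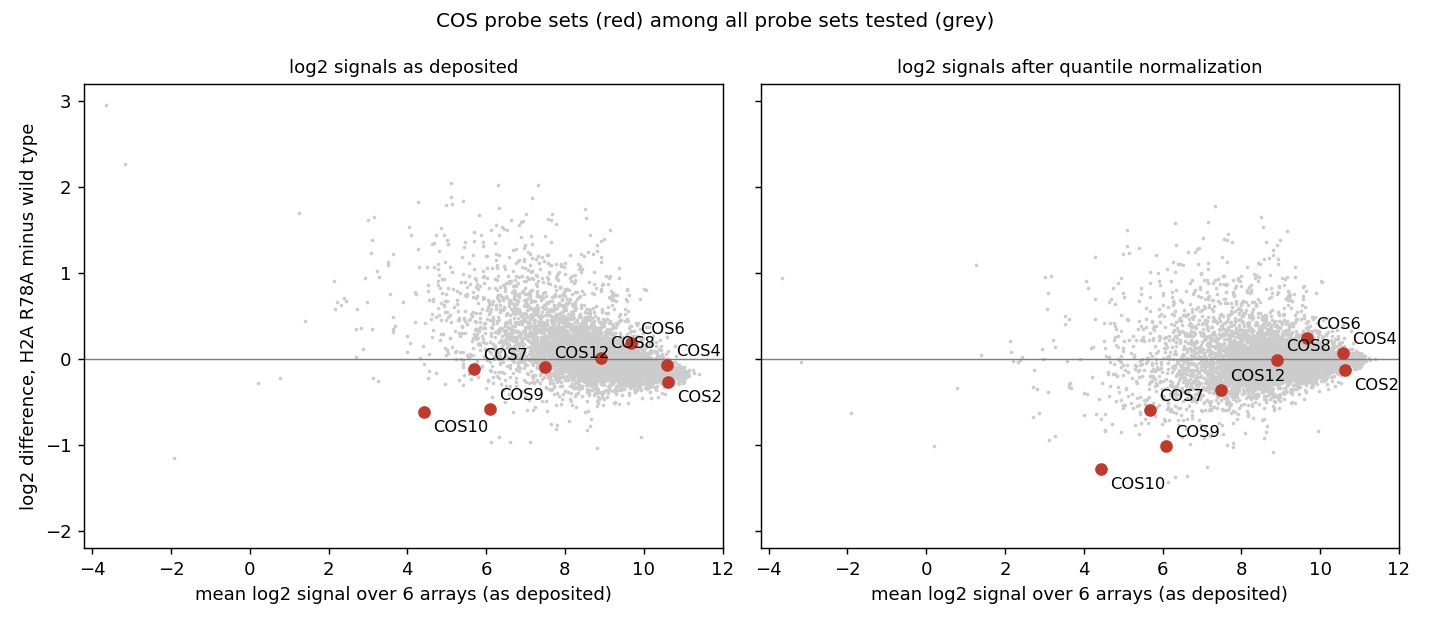
Log2 difference (H2A R78A minus wild type, y axis) against the mean log2 signal over the 6 arrays (x axis) for all probe sets tested (grey) and the 8 COS probe sets (red), as deposited on the left and after quantile normalization on the right. COS10 (-0.61, then -1.28) and COS9 (-0.58, then -1.02) lie at the lower edge of the dim probe sets, while COS8 stays near 0 in both panels.

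COS6 (YGR295C), read by a probe set without the suffix for shared sequence at percentile 81.1 of signal, was the only member whose mutant arrays all lay higher. Its wild-type signals were 803, 766 and 726, and its mutant signals 902, 809.7 and 889. The nearest values of the groups, 803 and 809.7, were close together. Between a mean log2 signal of 8 and 10, where COS6 and COS8 lie, 12.2% of probe sets were higher and 8.91% lower by limma. The difference was 0.18 (1.13-fold, SE 0.07, 95% interval 0.03 to 0.33) and did not pass, with a limma adjusted p of 0.070. COS6 passed as higher with the replicate block (limma adjusted p = 0.0334) and after quantile normalization (0.24, limma adjusted p = 0.0359). With median centring the COS6 difference was 0.12 and did not pass (limma adjusted p = 0.198). In all, COS6 passed in 6 of 18 alternatives, and in 1 of the 6 that left out an array.

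COS8 (YHL048W), the member placed at the nuclear membrane, read 444, 436 and 564 in wild type and 579.9, 411 and 474 in the mutant. The groups overlapped fully, and each held 1 high array. The difference was 0.02 (limma adjusted p = 0.938), and the 95% interval runs from a ratio of 0.828 to one of 1.24, which does not show that COS8 was unchanged. COS12 (YGL263W), the first gene from the left end of chromosome VII, read 234, 157 and 176 in wild type and 207, 142 and 181 in the mutant. These groups overlapped too, with replicate 2 lowest in each. The COS12 difference was -0.10 (95% interval -0.47 to 0.27, limma adjusted p = 0.695). It was -0.31 with cyclic loess and -0.36 after quantile normalization (limma adjusted p = 0.162 and 0.114), and it passed as lower with the replicate block after quantile normalization (limma adjusted p = 0.0152).

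Of the probe sets with shared sequence, those of COS2 and COS4 were bright, at percentiles 97.3 and 97.0 of signal, and that of COS7 was dim, at 3.53. The COS2 (YBR302C) probe set read 1649, 1787 and 1768 in wild type and 1402, 1457 and 1462 in the mutant. The groups were well apart, with coefficients of variation of 4.31% and 2.32%, the highest mutant value lying below the lowest wild-type one. It fell 1.20-fold (log2 -0.27, SE 0.05, 95% interval -0.39 to -0.15, limma adjusted p = 0.00444), and the call held when any one array was left out, with differences from -0.30 to -0.25 and limma adjusted p-values of at most 0.0235. Above a mean log2 signal of 10, 30% of probe sets were lower and 1.31% higher by limma, and after quantile normalization the COS2 difference was -0.13 (limma adjusted p = 0.039). With cyclic loess it did not pass (-0.12, limma adjusted p = 0.0678).

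The COS4 (YFL062W) probe set read 1495, 1592 and 1661 in wild type and 1487, 1413 and 1609 in the mutant. The groups overlapped, and the difference of -0.08 did not pass (95% interval -0.22 to 0.07, limma adjusted p = 0.409); it was 0.07 after quantile normalization. The COS7 (YDL248W) probe set read 47.1, 46.6 and 70.8 in wild type and 49.1, 50.5 and 49.7 in the mutant. The mutant arrays were nearly alike, and wild-type replicate 3 alone stood high. The COS7 difference was -0.11 (limma adjusted p = 0.666), 0.09 without wild-type replicate 3, and -0.59 after quantile normalization (limma adjusted p = 0.0276).

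**Figure D3:**
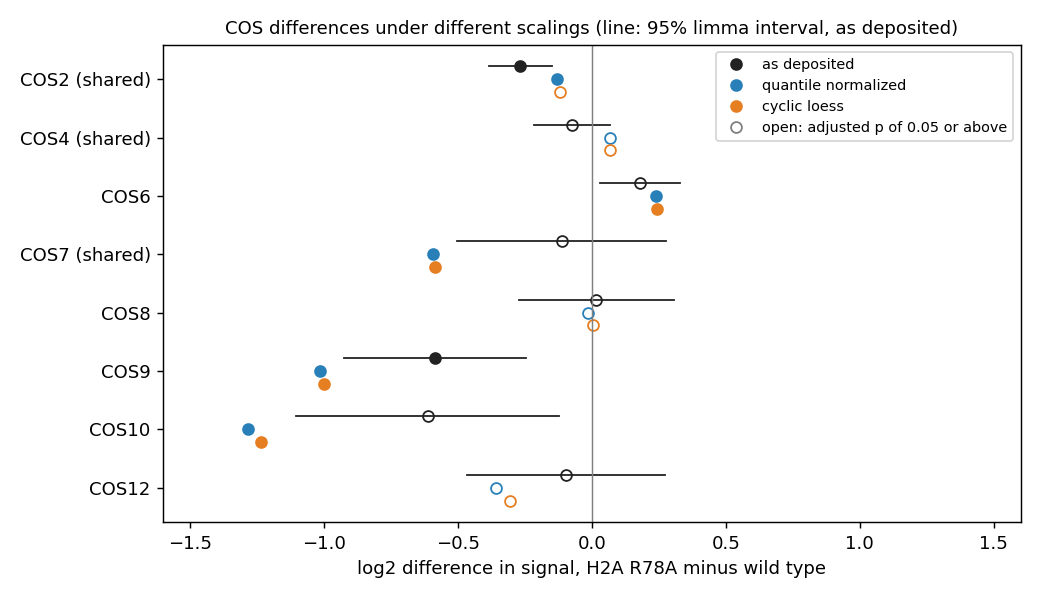
Log2 difference (H2A R78A minus wild type, x axis) of each COS probe set on the deposited scale (black, with the 95% limma interval), after quantile normalization (blue) and with cyclic loess (orange); filled points have a limma adjusted p below 0.05. The dim members COS7, COS9, COS10 and COS12 lie further to the left under both normalizations, and COS6 stays above 0 in all 3.

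Wild-type replicate 3 was the highest wild-type array for 5 of the 8 COS probe sets, beside 36.3% of all probe sets, and mutant replicate 2 was the lowest mutant array for 6 of the 8, beside 42.7%. Among the probe sets below the 25th percentile of signal, these shares were 42.4% and 55.6%. The part of these arrays in the COS differences was not tested beyond leaving each out. Without wild-type replicate 3 the COS9 and COS10 differences were -0.46 and -0.40, and without mutant replicate 2 they were -0.54 and -0.52.

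After each normalization 1 member passed as higher and others as lower, while COS4, COS8 and COS12 did not pass. Quantile normalization gave 1 higher (COS6) and 4 lower (COS2, COS7, COS9 and COS10) of the 8, against 10.3% higher and 9.68% lower of all probe sets. Their median was then -0.24, and that of all probe sets -0.03. Cyclic loess gave 1 higher and 3 lower, against 11.5% and 7.33%.

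Because the members were measured on the same arrays, the ratio of one to another does not depend on how an array as a whole is scaled. The pair of COS6 and COS2 was chosen after their values were seen. The log2 ratio of COS6 to COS2 was -1.04, -1.22 and -1.28 on the wild-type arrays and -0.64, -0.85 and -0.72 on the mutant arrays. The groups did not overlap, and the ratio was 1.36-fold higher in the mutant (exact permutation test, two-sided, p = 0.1, the smallest that 3 against 3 arrays can give). Groups did not overlap for 43.7% of the ratios of neighbouring genes taken over the whole genome. The change in the ratio was 0.45 on the log2 scale as deposited and 0.37 after quantile normalization.

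Several genes next to the COS members rose. For each of the 10 members the nearest gene on each side with a probe set under its name was taken. This gave 14 genes and 15 probe sets, 4 of them with a suffix for shared sequence. Of these 15, 9 were higher and 2 lower by limma, with a median difference of 0.55. The background was 17.9% higher and 9.35% lower, but 13 of the 15 lay below the 25th percentile of signal, where increases were common. Quantile normalization left 7 higher and 4 lower of the 15, against 10.3% and 9.68% of all probe sets, and their median difference at 0.24.

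DDI3, a cyanamide hydratase gene beside COS4 with a nearly identical copy elsewhere, rose 3.07-fold, from 114 ± 5.93 to 349 ± 14.5 (limma adjusted p = 3.56e-06). Its probe set ends in _s_at, so this rise may not belong to the gene beside COS4 alone. YHL048C-A, beside COS8, rose 1.95-fold, and PAU24, beside COS2 and read by a probe set with shared sequence, 1.89-fold. MAL11, an alpha-glucoside permease gene 3 genes from COS6, rose 1.86-fold, and the permease gene MPH2, beside COS7, rose 1.71-fold by its own probe set and 1.43-fold by one with shared sequence. The aryl-alcohol dehydrogenase genes AAD14 and AAD10, 5 genes from the unmeasured COS1 and 5 from the unmeasured COS5, rose 1.72-fold and 1.49-fold. The ferric reductase gene FRE2, beside COS9, rose 1.42-fold (limma adjusted p = 0.0487). After quantile normalization FRE2 and the shared MPH2 probe set no longer passed (differences of 0.13 and 0.24).

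Lower neighbours lay beside COS8 and COS10. The siderophore transporter gene ARN2, beside COS8, fell 1.22-fold (limma adjusted p = 0.0358), and YNR075C-A, beside COS10, fell 1.41-fold from 107 ± 3.79 to 75.7 ± 5.50 (limma adjusted p = 0.00978). YFL064C beside COS4, SRY1 beside COS9, AIF1 beside COS10 and YGL262W beside COS12 did not pass, with differences of 0.03, -0.15, -0.04 and 0.55. The YFL064C probe set is one with shared sequence. SRY1 and AIF1 passed as lower after quantile normalization (-0.59 and -0.34). YGL262W, at percentile 1.95 of signal, passed as higher with the replicate block (limma adjusted p = 0.0238). After quantile normalization its difference was -0.08 (limma adjusted p = 0.810).

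**Figure D4:**
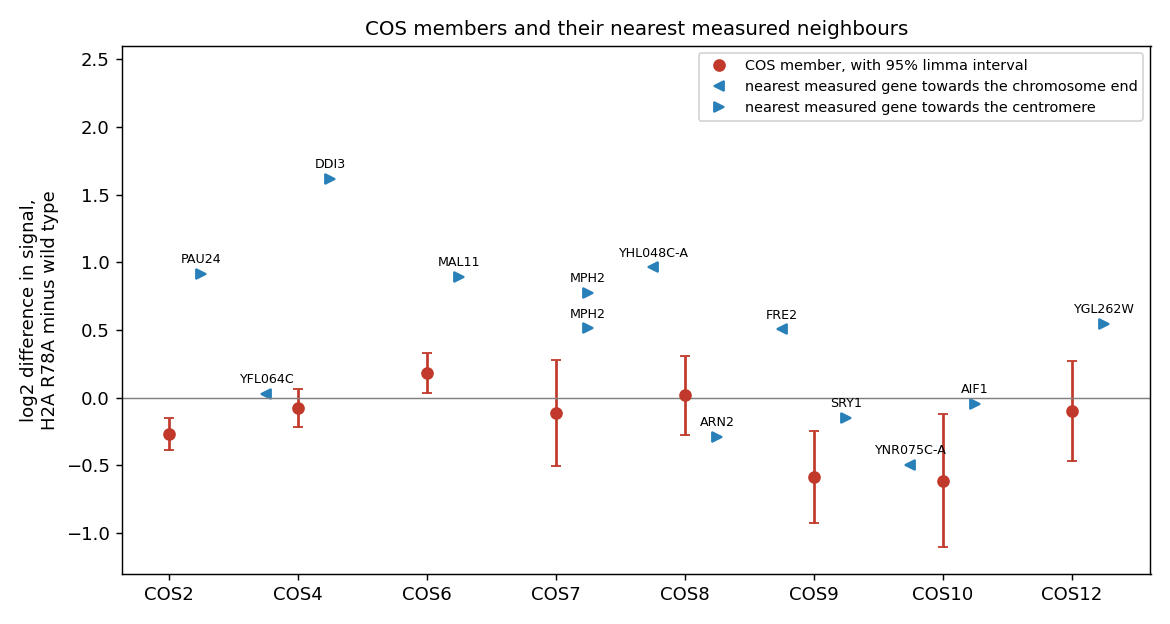
Log2 difference (H2A R78A minus wild type, y axis) of the 8 measured COS members (red, with the 95% limma interval) and of their nearest measured neighbours towards the chromosome end or the centromere (blue triangles). DDI3 (1.62) lies far above COS4 (-0.08), and YNR075C-A (-0.50) lies close to COS10 (-0.61).

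Within each array the measured members were then set against their neighbours, 13 pairs in all. The ratio of member to neighbour was lower in the mutant, with no overlap between the groups, for 9 of the 13 and higher for 0; the background for such ratios between neighbouring genes was 43.7% in either direction. That background covers genes of all signals, and its share in the lower direction alone was not computed. Of the 13 pairs, 12 have a neighbour below the 25th percentile of signal. On the deposited scale dim probe sets lay higher in the mutant as a body. This alone lowers the ratio of a bright member to a dim neighbour. The rises of DDI3, PAU24, MAL11, MPH2, YHL048C-A and FRE2 given above also enter these ratios, so the count is not separate from them. The MPH2 probe sets give 2 of the 9 pairs. Counted by gene, 8 of 12 neighbours had such a lower ratio. The changes in the log2 ratio ran from -1.69 (COS4 against DDI3, both read by shared-sequence probe sets) to 0.30 (COS8 against ARN2). COS9 against FRE2 changed by -1.09, and COS2 against PAU24 by -1.18. The smallest p an exact permutation test can give for any of these pairs is 0.1, so none can pass. After quantile normalization 7 of the 13 had no overlap, all 7 lower in the mutant. The genome-wide share of such ratios was not computed on that scale, so this count has no background beside it.

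Other families and gene lists were described alongside by their counts, each to be read against the shares of all probe sets. By limma these were 17.9% higher and 9.35% lower, and 24.2% and 16.4% at an unadjusted p below 0.05. After quantile normalization they were 10.3% and 9.68%. With the replicate block the shares were 23.7% and 15.9%, and with the block after quantile normalization 14% and 15.3%. The DUP240 genes encode small membrane proteins related to the Cos proteins, and 5 of the 10 listed genes had a total of 6 probe sets, of which 1 (16.7%) was higher and 0 lower by limma (at an unadjusted p below 0.05, 2 and 0). The one was PRM8, which rose 1.50-fold (112 ± 11.4 to 167 ± 22.2, limma adjusted p = 0.00769). With the replicate block 2 were higher, and after quantile normalization 0 were higher and 0 lower. The PAU genes, another subtelomeric family, which encodes cell wall mannoproteins, had 16 probe sets for 13 genes, 13 of them with a suffix for shared sequence. The median difference of the 16 was 0.30. By limma 8 (50.0%) were higher and 1 (6.25%) lower, and 3 were higher and 1 lower after quantile normalization. Of the 16, 9 lay below the 25th percentile of signal, and below a mean log2 signal of 6 and between 6 and 8 the shares of all probe sets that were higher are 45.9% and 34.5%.

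PAU5 showed how far probe sets of one gene can part. Its shared probe set rose 2.24-fold, and its specific one differed by -0.09 (limma adjusted p = 0.505). Besides PAU24, the shared probe set of PAU23 rose 1.76-fold. The specific one of PAU23 rose 1.62-fold with groups that overlapped, and its call ended after quantile normalization (0.27, limma adjusted p = 0.418). PAU18 was the one that fell, by 0.30 on the log2 scale.

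ESCRT complexes bend and cut the endosomal membrane around cargo, and of 20 ESCRT genes 2 (10%) were higher and 1 (5%) lower by limma, shares below those of all probe sets, with a median difference of 0.02. SNF8 and VPS25 rose 1.54-fold and 1.24-fold (limma adjusted p = 0.00757 and 0.00944), and VPS36, the other gene of their complex ESCRT-II, did not pass (0.10, limma adjusted p = 0.538). VTA1, a regulator of the ATPase Vps4, fell 1.14-fold; with 1 array fewer, 0 ESCRT genes were lower by limma, except in the run that left out mutant replicate 2, which gave 1. The SNF8 and VTA1 calls also ended after quantile normalization (0.27 and -0.13), where 1 of the 20 was higher and 0 lower. Of 18 genes for the ubiquitin ligase Rsp5 and related adaptors, 2 (11.1%) were higher and 0 lower by limma (5 and 1 at an unadjusted p below 0.05), with 5 higher under the replicate block and 1 higher and 4 lower after quantile normalization. The 2 were the adaptor genes EAR1, which rose 1.36-fold, and ART10, which rose 1.21-fold and whose call ended after quantile normalization (0.11, limma adjusted p = 0.355).

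Among 14 genes of telomeric silencing, 0 were higher and 1 (7.14%) lower by limma (2 and 1 at an unadjusted p below 0.05). There were 2 higher and 2 lower with the replicate block, 0 and 2 after quantile normalization, and 0 and 5 with both. The lower one was SIR2, for the NAD+-dependent deacetylase. It read 535, 557 and 501 in wild type and 416, 428 and 375 in the mutant, so all mutant arrays lay below all wild-type arrays, and it fell 1.31-fold (limma adjusted p = 0.00438). SIR3 and SIR4 did not pass, with differences of -0.10 and 0.06. Among 14 genes of NAD+ supply, 3 (21.4%) were higher and 2 (14.3%) lower. BNA2, for the entry enzyme of NAD+ synthesis from tryptophan, rose 2.83-fold from 54.6 ± 2.30 to 154 ± 10.8 (limma adjusted p = 1.34e-05). BNA4, a later enzyme of that route, rose 1.86-fold, while NPT1, for the enzyme that salvages nicotinic acid, fell 1.26-fold and BNA5 fell 1.25-fold. The third that rose was TNA1, a nicotinic acid permease gene, by 1.17-fold, and its call ended after quantile normalization (limma adjusted p = 0.0857).

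The profile of COS10, the member without shared sequence that had the largest difference, was set against the brighter probe sets over the 6 arrays. Closest to it was GRX4, a glutaredoxin gene, at a root-mean-square distance of 0.14 on the log2 scale, with a difference of -0.61. RPS9A, for a ribosomal protein, and TOM22, for an import receptor of mitochondria, followed at distances of 0.18 and 0.20, with differences of -0.34 and -0.38. The COS10 probe set is dim and missed the threshold (limma adjusted p = 0.0635), and its wild-type replicate 3 stood high. How near other profiles lie to one another was not computed, so these distances have no background beside them.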

How the data were processed

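The authors' deposited values are Affymetrix probe set signal intensities on a linear scale; MAS5 and limma are named in the submitters' processing notes, with versions not given in the sources used here. These intensities average 500 on each of the 6 arrays once 2% of the values is trimmed from either end. No detection calls were used. Of 5900 probe sets, 5498 were paired with 1 gene each, 12 of them under an updated symbol; the other 402, with 137 Affymetrix controls among them, were left out.

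The groups' log2 signals went into limma 3.58.1 under R 4.3.3 (two-sided, lmFit and then eBayes on an intensity trend), all probe sets fitted together and adjusted by Benjamini-Hochberg. The family members and companion lists were chosen with earlier results of these data known, so lists are described by counts only. Named genes were all members, their nearest measured neighbours, up to 4 members that passed from each list, and the 3 profiles nearest to COS10; SIR3, SIR4, TNA1, PAU18 and VPS36 were named after their values were seen. RMS distances used profiles centred on their own mean and probe sets at or above the 25th percentile.

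Over probe sets, residuals of same-numbered arrays had r = 0.173, 0.391 and 0.426, and pairs of unlike number -0.459 to 0.148, so the number was also fitted as a block. Over the brighter probe sets the same-numbered pairs had r = 0.108, 0.374 and 0.466. There wild-type replicate 3 with mutant replicate 1 had r = 0.190, above the pair of replicates 1. Alternatives were other scalings, a filter on dim probe sets, raised low values, other variance models, array weights, 1 probe set a gene, no shared-sequence probe sets, and leaving out each array. On simulated arrays with 5498 probe sets, limma recovered 58.2% of made differences of 0.25 and 100% of 0.5, in probe sets above the 25th percentile of signal. Of its 177 calls, 5 were false. COS7, COS9, COS10 and COS12 lie below that percentile, as do 13 of the 15 neighbour probe sets. The recovered shares therefore do not apply to them. Figures were drawn with matplotlib 3.10.9.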

Additional observations from a re-analysis of the deposited data

How the results depend on the processing

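The count of lower COS members was 2 as deposited and the count of higher ones 0. Quantile normalization gave 1 higher, 4 lower and a median of -0.24, cyclic loess gave 1 higher and a median of -0.21, and array weights gave 1 higher. The replicate block gave 1 higher and 3 lower and, after quantile normalization, 1 higher, 5 lower and a median of -0.24. In that last setting 14% of all probe sets were higher and 15.3% lower. Leaving out dim probe sets (4 members left) or shared-sequence probe sets (5 left) gave 1 lower. Leaving out each array gave 0 to 1 higher, 1 to 2 lower and medians from -0.218 to -0.077. With values below the 10th percentile of each array raised to it, 3 members were higher, 1 was lower and the median was 0.10; by construction COS7, COS9 and COS10 were at that floor on all 6 arrays, and their difference of 0.39 is that of the floor, which lay higher on the mutant arrays.

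Signs also turned for members that missed the threshold as deposited. COS4 was 0.066 after quantile normalization, with or without the replicate block, 0.069 with cyclic loess and 0.00050 with array weights. COS8 was -0.014 after quantile normalization, with or without the replicate block, -0.043 with median centring, and between -0.114 and 0.136 when one array was left out. COS7 was 0.086 without wild-type replicate 3, and COS12 was 0.066 without wild-type replicate 1 and 0.052 without mutant replicate 2; its lowest values were -0.221 with one array left out (mutant replicate 1) and -0.358 after quantile normalization. The cause of these turns was not tested. COS2 was lower in 16 of 17 alternatives, the exception being cyclic loess.

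Over all 5498 probe sets, 986 were higher and 514 lower. Quantile normalization gave 569 and 532, cyclic loess 633 higher, median centring 891 lower, array weights 933 lower, and the replicate block 873 lower (841 after quantile normalization). Without trend 315 were lower, and with one array left out as few as 199. The dim-probe filter gave 425 higher of 4123. Among the COS members, the replicate block changed the calls of COS6 and COS10 as deposited and that of COS12 after quantile normalization, where it passed as lower (adjusted p = 0.0152), and no other.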
